A study of Mus musculus with 16 samples.

Results

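Liver regrowth after a toxic injury was set against liver regrowth after surgery by asking, gene by gene, how far the response to carbon tetrachloride (CCl4) differed from the response to partial hepatectomy (PH). The quantity described is the log2 fold change of CCl4 over olive oil minus the log2 fold change of PH day 3 over PH day 0, called the difference below. Each challenge is thereby referred to its own control. All 16 of the 16 samples of the series enter it, in 1 model of 4 groups. A positive difference means a higher level after CCl4 than the PH response would give from the same starting level, and a negative one a lower level. Messenger RNA was sequenced from whole liver of male, wild type C57BL/6J mice, whose age the labels do not give. In the injection experiment, 3 samples came from mice given CCl4 and olive oil in equal parts and 3 from mice given olive oil alone, both by intraperitoneal injection of 2 µL for each g the animal weighed, and livers were taken 3 days later. In the surgical experiment, 5 samples came from the liver tissue resected on day 0 and 5 from the liver 3 days after PH. The labels name no sham operation, so the PH control is the removed tissue itself, while the CCl4 control was injected.

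CCl4 is converted to a toxic radical by cytochrome P450 enzymes, above all by the product of Cyp2e1 in hepatocytes around the central vein, and these cells die while those nearer the portal vein survive and divide. After PH no zone is destroyed, and hepatocytes throughout the remnant enlarge and divide. In both settings the tissue must keep up synthesis of plasma proteins, bile acids and detoxifying enzymes while it regrows, and macrophages clear dead cells after toxic injury.

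Libraries of the CCl4 group held 4738196 to 6218526 counts, and those of its olive oil control 4295169 to 5221957. For surgery the totals were 3271398 to 8647503 on day 0 and 2795909 to 4391002 on day 3. Levels are CPM, the count relative to 1000000 counts of library size, scaled by TMM factors, listed in the order of the replicate numbers (1 to 3 for the injection groups, 12 to 16 for the PH groups), and 3 counts in 1 library correspond to 0.370 to 1.03 CPM. Hepatocyte markers summed to 115921 to 172083 CPM after CCl4, 127316 to 134746 with olive oil, 103565 to 118222 before surgery and 139693 to 163819 after it. PH day 3 replicates 12 and 14 stood apart by skeletal muscle transcripts, which summed to 2125 and 145 CPM there and to at most 2.34 CPM in any other library, and replicate 12 also held the highest adipocyte marker sum, 86.8 CPM. CCl4 replicate 1 differed most from its own group, with a chi-square per degree of freedom of up to 72.3 against other CCl4 libraries. It held 1569.8 CPM of the metallothionein gene Mt1, which was at 16.3 and 21.7 CPM in the other two, and 15.9 CPM of the desaturase gene Scd1, which was at 574 and 1345 CPM in them. The file headers place the injection libraries and the PH libraries in 2 experiments run on the same lane, so that experiment and kind of challenge cannot be told apart.

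Of 11868 genes tested, 633 (5.33%) responded differently at a Benjamini-Hochberg adjusted p under 0.05 in edgeR's quasi-likelihood test, the rule behind every gene called higher or lower below. Of these, 174 (1.47% of those tested) were higher and 459 (3.87%) were lower after CCl4. Higher stands for a positive difference and lower for a negative one, which need not match the order of CCl4 and PH day 3 levels. The split depends on scaling: with plain library sizes, which move the median difference of all genes by 0.28, 481 were higher and 153 lower, and with upper quartile scaling 233 and 386. The largest group of the 633, 410 genes, passed the test against its own control after CCl4 but not after PH, 116 of them rising and 294 falling after CCl4. A further 170 moved the same way in both with the larger change after CCl4, 42 rising and 128 falling. In 28 genes the PH response alone passed, 18 moved in opposite directions, and 6 passed in neither. Ppl, which encodes the desmosome-associated protein periplakin, was the 1 gene with a shared direction and a larger change after PH. Leaving out olive oil replicate 3 reduced the counts to 80 higher and 304 lower, and leaving out CCl4 replicate 2 or olive oil replicate 1 reduced the higher ones to 99 and 98. Without both PH day 3 libraries that held muscle transcripts, 122 were higher and 354 lower.

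The 2 responses rested on different libraries, and across the 11868 genes their log2 fold changes had a Pearson correlation of 0.73 and a Spearman correlation of 0.58, a description in which genes are not independent. The median log2 fold change of all genes was 0.04 after CCl4 and 0.00 after PH, and the median difference was 0.02. Alone, the CCl4 response had 3441 called genes, of which 1729 rose (14.6% of those tested) and 1712 fell (14.4%), and the PH response had 1760, of which 1002 rose (8.44%) and 758 fell (6.39%). Both passed for 1242 genes, 1224 of them in the same direction, and 1053 of the 1242 did not pass the test of the difference. The difference was measured less precisely than either response, with a median standard error of 0.33 against 0.26 for CCl4 and 0.20 for PH. A difference can also come from the controls: in 154 of the 633 genes (24.3%) the olive oil and PH day 0 groups were farther apart than the CCl4 and PH day 3 groups. Tested against each other in the same model, the 2 control groups differed in 93 of the 633 (14.7%). Over all 11868 genes they differed in 287 (2.42%). The controls enter the difference, so these shares are not independent of its calls.

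**Figure D1:**
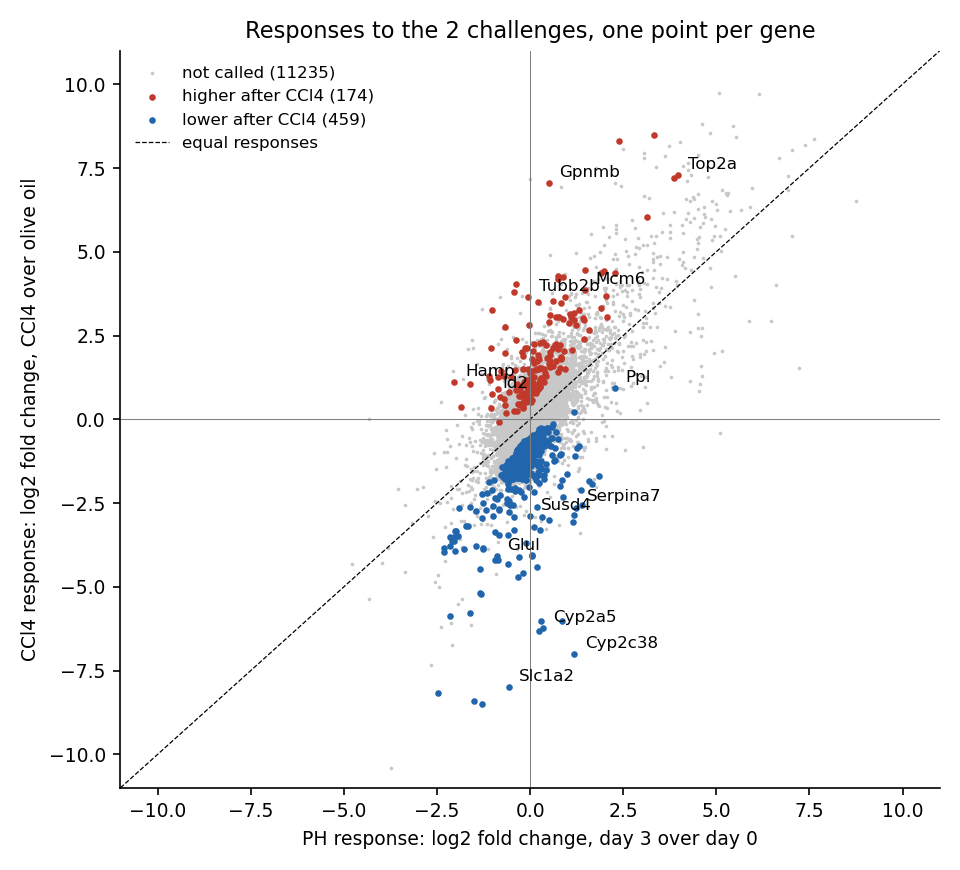
Log2 fold change of PH day 3 over day 0 (horizontal) against that of CCl4 over olive oil (vertical), 1 point per tested gene, with the 174 genes higher and the 459 lower after CCl4 in red and blue. Of the 633 coloured points, 410 are genes that passed against their control after CCl4 but not after PH, and the dashed line marks equal responses.

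Genes of pericentral hepatocytes, the cells around the central vein, were lower after CCl4 in 9 of 24 tested members and higher in 0, against 3.87% and 1.47% of all genes. The median difference was -0.83 over these members and 0.02 over all genes. The clearest was Glul, which encodes glutamine synthetase, an enzyme of the innermost ring of pericentral cells (ENSMUSG00000026473, chromosome 1, 153899944 to 153909723, plus strand of GRCm38). Its levels were 788, 882 and 820.3 CPM in the olive oil livers, 59.8, 38.6 and 48.5 CPM after CCl4, 947, 727, 939, 721 and 852 CPM at PH day 0 and 368, 417, 624, 439 and 416 CPM at PH day 3. Every CCl4 liver lay at less than 60 CPM and every other liver above 300, and the olive oil and PH day 0 ranges overlapped. The CCl4 response was -4.09 ± 0.21 and the PH response -0.89 ± 0.14 (log2 ± SE), a difference of -3.20 ± 0.24 (adjusted p = 1.73e-08).

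Slc1a2, a glutamate transporter gene of the same cells (ENSMUSG00000005089, chromosome 2, 102658659 to 102790784, plus strand of GRCm38), measured 155, 221 and 231 CPM in the olive oil livers, 2.55, 0.246 and 0 CPM after CCl4, 114, 107, 117, 114 and 126 CPM at PH day 0 and 70.8, 67.9, 93.3, 87.1 and 70.9 CPM at PH day 3. The CCl4 libraries held 14 reads of it in all, 12 of them in replicate 1, and all 13 other libraries were above 60 CPM. Its difference was -7.44 ± 0.54 (adjusted p = 3.39e-06). Cyp2e1, whose product turns CCl4 into its radical (gene ENSMUSG00000025479, chromosome 7, 140763739 to 140774987, plus strand of GRCm38), had levels of 7195, 6557 and 8167 CPM in the olive oil livers, 451, 667 and 384 CPM after CCl4, 4557, 5409.8, 6013, 4145 and 5171 CPM at PH day 0 and 1519.8, 1873, 2772, 2251 and 2024 CPM at PH day 3. It fell in both responses, by 3.87 after CCl4 and by 1.28 after PH on the log2 scale, and no 2 groups overlapped: CCl4 was lowest, then PH day 3, PH day 0 and olive oil. The difference was -2.59 ± 0.28 (adjusted p = 4.22e-06).

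Other pericentral genes that were lower include the ornithine aminotransferase gene Oat (difference -4.10), the drug-metabolizing gene Cyp2c29 (-4.59), Rgn (-1.80), the proline dehydrogenase gene Prodh (-1.45) and the sterol hydroxylase gene Cyp27a1 (-0.68). Oat, Rgn and Cyp2c29 had PH responses of 0.06, 0.11 and 0.18, none of which passed the test. Genes named only for having passed, here and in the lists and classes that follow, were chosen after their values were seen. General hepatocyte markers had 1 lower member of 12, against 3.87% of all genes. Their median difference was -0.03, which was 0.22 with library size scaling. In whole liver, fewer cells of a type and less RNA per cell cannot be told apart. Periportal genes, of the hepatocytes at the other end of the lobule, were lower in 4 and higher in 2 of 25. Of all genes 3.87% were lower and 1.47% higher, and the periportal median difference was -0.51. Without CCl4 replicate 1 the count of lower periportal genes was 12, without CCl4 replicate 2 it was 1, and with library size scaling it was 2. The urate oxidase gene Uox led them, at 2279.9, 2156 and 2151 CPM in the olive oil livers, 697, 610.2 and 734 CPM after CCl4, 1518, 1376, 1876, 1812 and 1689 CPM at PH day 0 and 1909, 1911, 1696, 1679 and 1781 CPM at PH day 3. Its CCl4 libraries lay below all others, and its difference was -1.81 ± 0.19 (adjusted p = 3.39e-06). Cdh1, the E-cadherin gene, was on the other side, with a difference of 1.36 ± 0.23 (adjusted p = 0.00110) and levels of 71.7, 76.0 and 58.0 CPM in the olive oil livers, 158, 247 and 167 CPM after CCl4, 88.7, 131, 97.7, 101 and 93.7 CPM at PH day 0 and 103, 115, 98.3, 95.8 and 145 CPM at PH day 3. Its CCl4 livers were highest, its olive oil livers lowest, and its PH groups overlapped.

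Cytochrome P450 genes of drug metabolism were lower in 12 of 29 and higher in 0, against 3.87% and 1.47% of all genes. With TMM scaling the difference was negative in all 29, with a median of -1.87. The list's median log2 fold change was -1.39 in the CCl4 response and 0.01 in the PH response. Some of these 29 are near-identical copies between which reads may be split, so single values of the Cyp2a and Cyp2c genes are uncertain. Cyp2a5, whose product hydroxylates coumarin, was at 517, 461 and 651 CPM in the olive oil livers, 0.849, 6.65 and 13.4 CPM after CCl4, 139.8, 92.9, 173, 136 and 147 CPM at PH day 0 and 96.9, 229, 166, 129 and 248 CPM at PH day 3. Its PH groups overlapped, its CCl4 libraries lay below all others, and olive oil livers held more than PH day 0 livers, by 1.98 on the log2 scale. Its difference was -6.57 ± 0.71 (adjusted p = 3.17e-04), beside -6.33 ± 0.65 for its close relative Cyp2a4. Without CCl4 replicate 1 the count of lower P450 genes was 19 of 29, and over all single libraries left out it ran from 8 to 19.

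**Figure D2:**
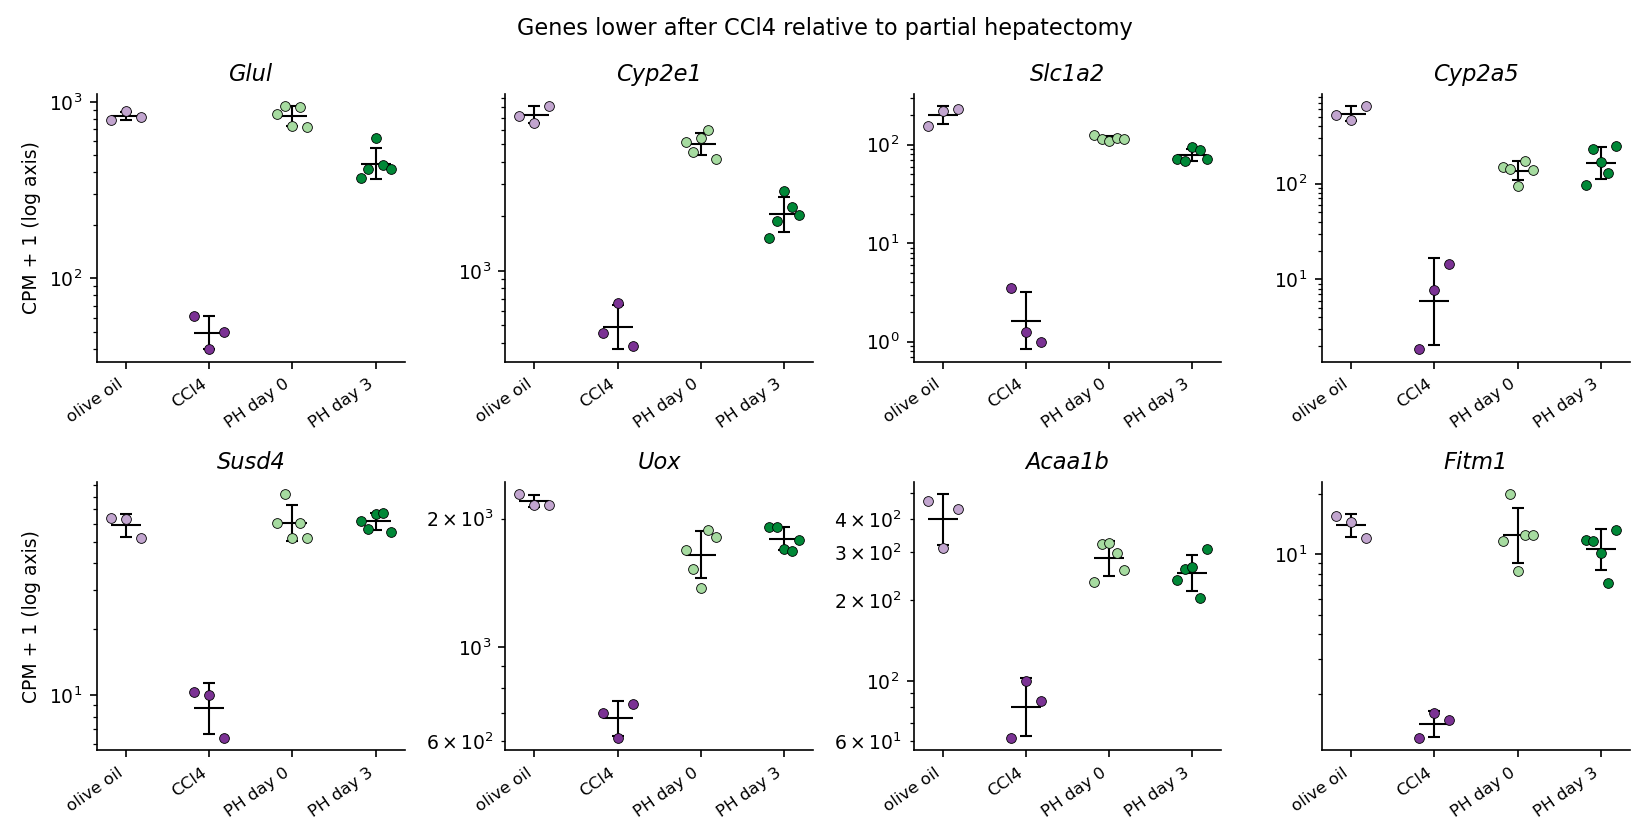
CPM + 1 on a log axis in each of the 16 livers for 8 genes lower after CCl4 relative to PH, with points for libraries, a horizontal mark for the mean of the log values and bars of 1 SD of the log values. In Glul, Slc1a2, Cyp2a5, Susd4, Uox, Acaa1b and Fitm1 the 3 CCl4 points lie below every other point, and so they do in Cyp2e1, where PH day 3 also lies below both controls.

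Male-biased liver genes, which depend on the pulsed growth hormone pattern of males, were lower in 14 of 30 and higher in 0. The shares of all genes were 3.87% and 1.47%. The male-biased genes fell after both challenges, 26 of 30 after CCl4 and 22 of 30 after PH, against 14.4% and 6.39% of all genes. Their median log2 fold change was -2.68 in the CCl4 response and -1.74 in the PH response. Of the lower members, 9 are Mup genes of urinary proteins, a family of near-identical copies whose values are uncertain and not independent of each other. Susd4, a gene of a membrane protein with complement-control repeats, is a single-copy member and was at 63.2, 62.2 and 50.7 CPM in the olive oil livers, 9.34, 8.99 and 5.39 CPM after CCl4, 81.1, 50.7, 59.8, 50.8 and 59.7 CPM at PH day 0 and 61.2, 56.2, 66.0, 66.3 and 54.5 CPM at PH day 3. After CCl4 it lay below 10 CPM in all 3 livers and above 50 in all other groups, and its PH response was 0.01 ± 0.14. The difference was -2.89 ± 0.24 (adjusted p = 1.13e-07). Elovl3, a fatty acid elongase gene, was at 88.7, 90.7 and 104 CPM in the olive oil livers, 4.67, 11.2 and 2.78 CPM after CCl4, 656, 319, 300.003, 336 and 368 CPM at PH day 0 and 101, 105, 134, 139.8 and 103 CPM at PH day 3. It fell in both responses from control levels that did not overlap, olive oil being 2.07 below PH day 0 on the log2 scale, with a difference of -2.10 ± 0.49 (adjusted p = 0.0252). It lost the call in 6 alternatives, among them no filter, leaving out CCl4 replicate 1 (adjusted p = 0.0589), olive oil replicate 1 or olive oil replicate 3, and leaving out PH day 3 replicates 12 and 14 together. With library size scaling the count of lower male-biased genes was 8, and without olive oil replicate 3 it was 6. In the insulin, growth hormone and IGF list 3 of 25 were lower, against 3.87% of all genes. These were the growth hormone receptor gene Ghr (-1.11 ± 0.21), Igfals (-1.25 ± 0.21) and the receptor gene Erbb3 (-0.78). Igfals encodes the carrier subunit of the circulating IGF complex. Without CCl4 replicate 1, 6 were lower, and with library size scaling 1 was. Under that scaling Ghr had an adjusted p of 0.0892. Ghr measured 637, 513 and 559 CPM in the olive oil livers, 109, 196 and 194 CPM after CCl4, 444, 458, 540.0, 467 and 538 CPM at PH day 0 and 289, 330.3, 304, 295 and 329.5 CPM at PH day 3, so the CCl4 livers were lowest, the PH day 3 livers next, and the control groups overlapped.

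Bile acid synthesis and transport genes had a median difference of -0.44. They were lower in 8 of 28 and higher in 0, against 3.87% and 1.47% of all genes. They include 2 basolateral uptake carriers, Slc10a1 (-1.03) and Slco1b2 (-1.15 ± 0.20), the conjugating enzyme gene Slc27a5 (-1.04 ± 0.18) and the bile acid receptor gene Nr1h4 (-0.88). Cyp7a1, which catalyses the first and limiting step of the classical pathway, missed the threshold, with a difference of -1.68 ± 0.88 (adjusted p = 0.327) and CCl4 levels of 8.70, 92.0 and 220.3 CPM, a range that overlapped every other group. With library size scaling 4 members were lower and 1 higher.

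The study's title concerns lipids, and several lists cover their metabolism. Against 3.87% of all genes, fatty acid oxidation genes were lower in 6 of 33 and higher in 0, with a median of -0.50. The count was 18 without CCl4 replicate 1, 1 with library size scaling, 2 without the PH day 3 libraries holding muscle transcripts, and 3 when CCl4 replicate 2, CCl4 replicate 3, olive oil replicate 1 or olive oil replicate 3 was left out. Acaa1b, a peroxisomal thiolase gene, was at 466, 311 and 433 CPM in the olive oil livers, 60.5, 98.7 and 83.4 CPM after CCl4, 322, 324, 298, 257 and 231 CPM at PH day 0 and 236, 259, 265, 202 and 308 CPM at PH day 3. Its CCl4 livers lay below all others, and the difference was -2.14 ± 0.24 (adjusted p = 9.34e-06). Acadm, the medium-chain acyl-CoA dehydrogenase gene, rose after PH by 0.48 and its CCl4 response of -0.26 did not pass, and the difference was -0.74 ± 0.16 (adjusted p = 0.00611, and 0.196 with library size scaling).

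Triglyceride and lipid droplet genes were lower in 4 of 27, against 3.87% of all genes. Their median was -0.22 and was 0.06 with library size scaling, where 1 was lower. Without CCl4 replicate 1, 7 were. The 4 were Fitm1, a gene of droplet budding, the acyltransferase gene Dgat2 (-0.72 ± 0.16, not called with library size scaling) and the lipase genes Mgll (-1.05) and Lipe (-0.99). Fitm1 measured 14.5, 13.4 and 11.1 CPM in the olive oil livers, 0.212, 0.616 and 0.490 CPM after CCl4, 18.9, 7.20, 11.5, 11.5 and 10.6 CPM at PH day 0 and 10.7, 10.7, 9.11, 6.22 and 12.3 CPM at PH day 3. The 3 CCl4 livers held 9 reads of it together, and the difference was -4.39 ± 0.51 (adjusted p = 1.52e-05). Phospholipid genes were higher in 1 and lower in 3 of 26, against 1.47% and 3.87% of all genes, with a median of -0.06. In the choline branch, Chka, choline kinase, the entry step of phosphatidylcholine synthesis, was higher (1.83 ± 0.28, adjusted p = 7.47e-04). Chpt1, the last step of that branch, was lower (-1.33 ± 0.22, adjusted p = 7.70e-04). Chka was at 17.8, 18.7 and 18.6 CPM in the olive oil livers, 169, 154 and 83.2 CPM after CCl4, 49.7, 50.2, 41.1, 34.8 and 41.2 CPM at PH day 0 and 101, 109, 68.2, 88.2 and 83.1 CPM at PH day 3. Its CCl4 and PH day 3 ranges overlapped and its olive oil livers lay below PH day 0 livers. Chpt1 was at 171, 174 and 180.2 CPM in the olive oil livers, 74.1, 38.1 and 41.2 CPM after CCl4, 153, 124, 145, 128 and 145 CPM at PH day 0 and 93.4, 97.9, 116, 96.0 and 101 CPM at PH day 3, with the CCl4 livers lowest. Both kept the call in every alternative run.

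Of all genes 3.87% were lower and 1.47% higher, and for fatty acid synthesis, elongation and desaturation the counts were 2 lower and 0 higher of 28. These were Elovl3 and Mlxipl, the gene of the glucose-sensing lipogenic regulator ChREBP (-1.19 ± 0.25, adjusted p = 0.00701, and 0.123 with library size scaling). Fasn (-1.53 ± 0.65), Elovl6 (-1.14 ± 0.53) and Scd1 (-1.12 ± 1.23) did not pass, and Scd1 ranged from 15.9 to 1345 CPM within the CCl4 group. The number of lower genes in this list was 4 without CCl4 replicate 3, and 1 when CCl4 replicate 1, olive oil replicate 1 or PH day 3 replicates 12 and 14 were left out. Lipoprotein genes were lower in 4 of 33, among them the hepatic lipase gene Lipc (-1.40 ± 0.28), the apolipoprotein genes Apoc1 (-0.82 ± 0.19) and Apoa2 (-0.90 ± 0.25) and the sterol exporter gene Abcg5 (-1.19), against 3.87% of all genes. With library size scaling 2 of the 33 were higher and 0 lower. The number of lower ones was 9 without CCl4 replicate 1, and with either CCl4 replicate 2 or olive oil replicate 3 left out the number was 2. Apoa2 lost the call under 15 alternatives, 11 of them single libraries left out. Of 25 cholesterol synthesis genes 0 passed in edgeR with all libraries, DESeq2 and both limma-voom fits, and 3 had an unadjusted edgeR p under 0.05. With single libraries left out, 0 to 1 were higher and 0 to 1 lower. The list's median difference was 0.17, and -0.17 without olive oil replicate 3.

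**Figure D3:**
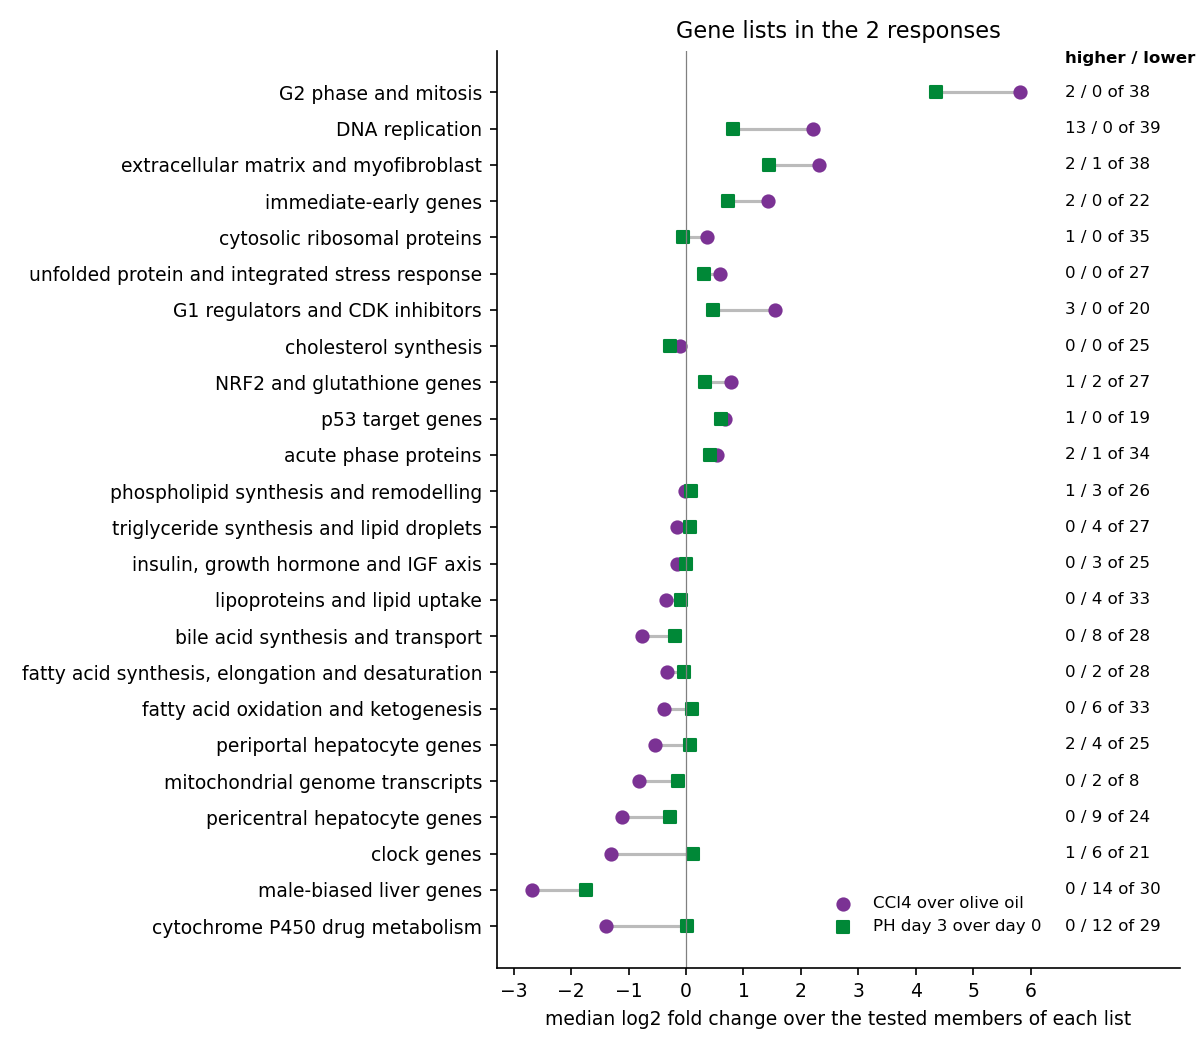
Median log2 fold change of the tested members of each gene list after CCl4 (purple circles) and after PH (green squares), ordered by the median difference, with the numbers of members higher and lower after CCl4 at the right. The mitosis and DNA replication lists have the larger CCl4 medians at the top, and the P450, male-biased and clock lists the lower ones at the bottom.

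Opposite directions were seen in 18 genes, which is 2.84% of the 633. The 15 that fell after CCl4 and rose after PH were Cyp2c38, Cabyr, Serpina7, Lrtm1, Kcnk5, Lhx6, Gstt3, Cth, Akr1d1, Lrp4, B630019A10Rik, Ap3m1, Slc6a13, Uroc1 and Mocs2. Serpina7, the gene of thyroxine-binding globulin (ENSMUSG00000031271, chromosome X, 139079257 to 139085236, minus strand of GRCm38), was at 34.6, 23.5 and 24.8 CPM in the olive oil livers, 5.52, 5.42 and 2.29 CPM after CCl4, 15.9, 28.3, 32.0, 20.5 and 13.0 CPM at PH day 0 and 48.0, 37.7, 96.1, 35.5 and 41.6 CPM at PH day 3. All CCl4 livers were below 6 CPM, and all PH day 3 livers were above every control. The CCl4 response was -2.64 ± 0.47, the PH response 1.23 ± 0.32 and the difference -3.87 ± 0.57 (adjusted p = 0.00131). Cth, cystathionine gamma-lyase, which makes cysteine from methionine, showed the same pattern at a higher level, with 329, 264 and 326 CPM in the olive oil livers, 177, 110.2 and 151 CPM after CCl4, 403, 243, 299, 283 and 313 CPM at PH day 0 and 627, 490.4, 508, 564 and 499.5 CPM at PH day 3. Control groups overlapped in Cth, and the difference was -1.87 ± 0.22 (adjusted p = 1.79e-05). The bile acid reductase gene Akr1d1 (-1.86 ± 0.34) and the glutathione transferase gene Gstt3 (-2.31 ± 0.31) belong here too. Cyp2c38 had the lowest difference of the named genes, -8.20 ± 0.84, on 2 reads in the CCl4 livers against 221 with olive oil, and its olive oil level was 164-fold (95% exact counting interval 44.8 to 1361) that after CCl4.

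The 3 genes that rose after CCl4 and fell after PH were Id2, Irf7 and Ier2. Id2 encodes an inhibitor of basic helix-loop-helix transcription factors, and it was at 111, 82.1 and 88.4 CPM in the olive oil livers, 195, 161 and 120.0 CPM after CCl4, 108, 166, 137, 168 and 150.3 CPM at PH day 0 and 67.8, 109, 60.0, 66.3 and 54.5 CPM at PH day 3. PH day 3 and CCl4 ranges did not overlap, while the controls did. Its difference was 1.78 ± 0.30 (adjusted p = 0.00164), called in every alternative run. Irf7, a regulator of interferon genes, was at 43.1, 54.7 and 35.1 CPM in the olive oil livers, 123, 40.3 and 88.4 CPM after CCl4, 51.0, 36.5, 49.6, 64.8 and 42.9 CPM at PH day 0 and 25.4, 28.1, 27.0, 28.1 and 27.6 CPM at PH day 3. CCl4 replicate 2 lay within the olive oil range and PH day 3 livers were lowest, and the difference was 1.76 ± 0.39 (adjusted p = 0.0148, and 0.0570 without PH day 3 replicates 12 and 14). It lost the call in 5 alternatives, among them this one, both limma-voom fits and leaving out olive oil replicate 3. Ier2, an immediate-early gene, had a difference of 2.13 ± 0.45 (adjusted p = 0.00757) with a higher PH day 0 than olive oil level, by 1.07 on the log2 scale. Without the 2 PH day 3 libraries holding muscle transcripts the opposed genes numbered 10, and their number was 11 without PH day 0 replicate 15 and 28 without CCl4 replicate 1.

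In 28 genes only the PH response passed against its control, 12 with a positive and 16 with a negative difference. Among the 12 were Hamp and Hamp2, near-identical copies that encode the iron hormone hepcidin and a relative, and Id3, related to Id2. Hamp was at 385, 183 and 398 CPM in the olive oil livers, 1334, 397 and 346 CPM after CCl4, 323, 344, 308, 393 and 311 CPM at PH day 0 and 82.2, 108, 114, 25.3 and 82.1 CPM at PH day 3. All PH day 3 livers were below all others, and CCl4 replicate 1 was far above its group. The PH response was -2.03 ± 0.45, the CCl4 response 1.10 ± 0.55 and the difference 3.13 ± 0.72 (adjusted p = 0.0247). Hamp lost the call in 5 alternatives, among them leaving out any 1 of the olive oil libraries or PH day 3 replicates 12 and 14 together, with adjusted p of 0.0527 to 0.0763. Ifi47, an interferon-inducible GTPase gene, fell after PH by 1.05 and had a CCl4 response of 0.35, with a difference of 1.39 ± 0.29 (adjusted p = 0.00485). Chdh, the choline dehydrogenase gene, and Tm6sf2, a gene of lipoprotein secretion, rose after PH by 0.47 and 1.19, with differences of -0.86 ± 0.21 and -0.96 ± 0.25. Ppl, the gene with the larger rise after PH, was at 16.8, 26.4 and 22.6 CPM in the olive oil livers, 26.3, 43.2 and 54.8 CPM after CCl4, 7.09, 14.2, 8.54, 13.4 and 10.6 CPM at PH day 0 and 50.5, 38.8, 55.3, 62.2 and 52.5 CPM at PH day 3. Its PH day 0 livers were lowest, and CCl4 and PH day 3 livers overlapped. The difference was -1.37 ± 0.34 (adjusted p = 0.0195), which was lost with library size scaling (adjusted p = 0.123), without PH day 3 replicates 12 and 14, and without olive oil replicate 2 or 3.

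**Figure D4:**
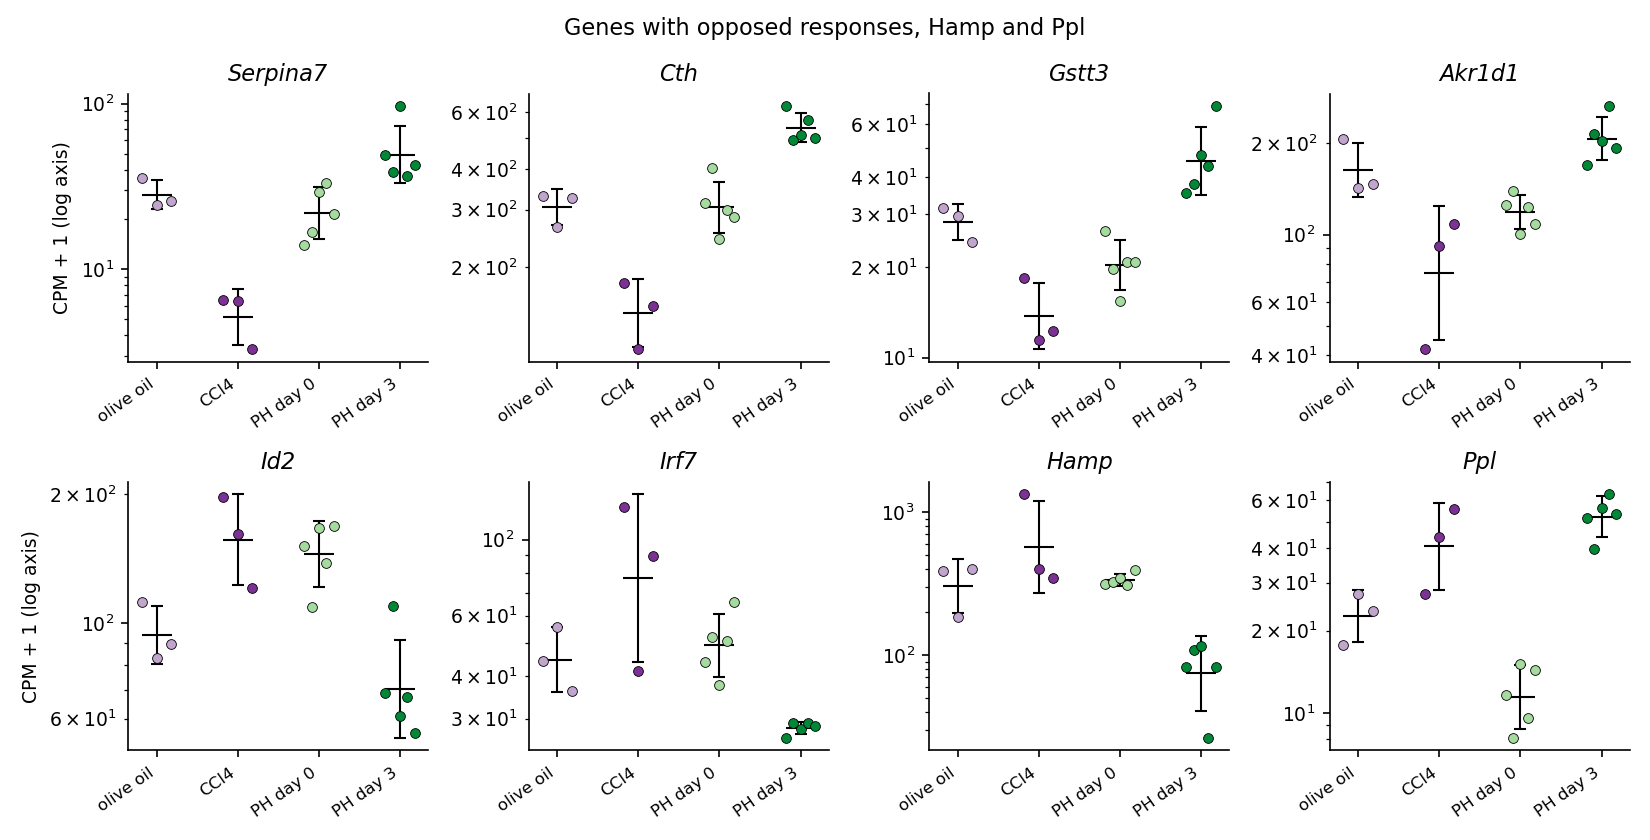
CPM + 1 on a log axis in each liver for Serpina7, Cth, Gstt3 and Akr1d1, which fell after CCl4 and rose after PH, for Id2 and Irf7, which did the reverse, and for Hamp and Ppl, with the mean and 1 SD of the log values. In the first 4 the CCl4 points lie below the olive oil points and the PH day 3 points above the PH day 0 points, without overlap within either pair.

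DNA replication genes were higher after CCl4 in 13 of 39 and lower in 0, against 1.47% and 3.87% of all genes, and the median difference was 1.19. They rose in 34 of 39 members after CCl4 and in 18 after PH, against 14.6% and 8.44% of all genes. The 13 were Pole, Mcm2, Mcm3, Mcm4, Mcm5, Mcm6, Mcm7, Dnmt1, Rrm1, Chaf1b, Pcna, Prim1 and Rfc2, which include all 6 subunits of the replicative helicase. Mcm6, one of these subunits (ENSMUSG00000026355, chromosome 1, 128331590 to 128359664, minus strand of GRCm38), was at 3.26, 8.57 and 5.66 CPM in the olive oil livers, 91.9, 93.7 and 69.8 CPM after CCl4, 8.28, 6.46, 5.87, 16.6 and 9.95 CPM at PH day 0 and 23.8, 24.7, 32.0, 23.0 and 29.0 CPM at PH day 3. The 3 CCl4 livers lay more than 2-fold above every PH day 3 liver, and the control ranges overlapped. The CCl4 response was 3.85 ± 0.32, the PH response 1.48 ± 0.24 and the difference 2.36 ± 0.40 (adjusted p = 0.00138). Pole, the catalytic subunit of a replicative polymerase, had the largest difference of the list, 3.45 ± 0.56 (adjusted p = 7.20e-04). It was at 0.752, 1.32 and 1.18 CPM in the olive oil livers, 25.3, 20.9 and 15.5 CPM after CCl4, 3.02, 1.74, 3.74, 2.31 and 6.18 CPM at PH day 0 and 4.11, 8.07, 3.77, 7.37 and 4.09 CPM at PH day 3, so that its PH groups overlapped and its olive oil level was 1.56 lower than PH day 0 on the log2 scale. Without olive oil replicate 3 the count was 8, and without PH day 3 replicates 12 and 14 it was 10.

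Promoters of replication genes are known targets of E2F factors, and those of mitotic genes of complexes that bind CCAAT boxes and the cell cycle homology region, so the windows of the called members were read for these motifs. The windows run from 250 bases before to 50 after the start in RefSeq (GRCm38.p6), and a window was found for 31 of the 39 tested replication genes and 31 of the 38 tested mitotic genes. An E2F motif was taken as TTTCCCGC, TTTCGCGC, TTTGGCGC or TTTGCCGC on either strand, a choice made after the values were seen. It was present in 4 of 10 called replication genes, in 10 of the 31 tested and in 2.32% of all 27025 promoters. The windows of Mcm6 (chr1:128359656-128359955, minus strand), Mcm5 (chr8:75109259-75109558, plus strand), Mcm3 (chr1:20820263-20820562, minus strand) and Mcm7 (chr5:138171834-138172133, minus strand) are shown because these 4 helicase genes were called and hold it, and Top2a (chr11:99024140-99024439, minus strand) because it was the called mitotic gene with a window. Capitals mark E2F motifs in the Mcm genes, and CCAAT or the homology region (TTTGAA or TTCGAA) on either strand in Top2a. Matches on opposite strands can overlap.
Mcm6: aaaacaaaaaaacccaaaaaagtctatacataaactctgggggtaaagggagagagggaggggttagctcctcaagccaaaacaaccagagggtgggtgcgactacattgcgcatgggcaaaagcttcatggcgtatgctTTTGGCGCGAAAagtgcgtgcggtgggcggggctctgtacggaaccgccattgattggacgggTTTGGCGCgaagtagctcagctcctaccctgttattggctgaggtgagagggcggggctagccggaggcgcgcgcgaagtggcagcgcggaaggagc
Mcm5: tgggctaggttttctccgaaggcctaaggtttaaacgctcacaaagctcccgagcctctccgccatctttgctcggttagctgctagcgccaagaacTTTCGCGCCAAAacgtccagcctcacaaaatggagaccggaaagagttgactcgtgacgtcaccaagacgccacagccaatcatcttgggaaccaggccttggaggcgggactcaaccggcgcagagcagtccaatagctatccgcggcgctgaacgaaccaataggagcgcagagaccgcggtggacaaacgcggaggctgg
Mcm3: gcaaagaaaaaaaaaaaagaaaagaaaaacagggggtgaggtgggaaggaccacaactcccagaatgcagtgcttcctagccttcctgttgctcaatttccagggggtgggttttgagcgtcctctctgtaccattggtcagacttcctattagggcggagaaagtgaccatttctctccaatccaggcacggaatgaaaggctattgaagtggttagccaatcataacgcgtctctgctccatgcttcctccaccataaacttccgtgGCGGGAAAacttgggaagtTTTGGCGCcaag
Mcm7: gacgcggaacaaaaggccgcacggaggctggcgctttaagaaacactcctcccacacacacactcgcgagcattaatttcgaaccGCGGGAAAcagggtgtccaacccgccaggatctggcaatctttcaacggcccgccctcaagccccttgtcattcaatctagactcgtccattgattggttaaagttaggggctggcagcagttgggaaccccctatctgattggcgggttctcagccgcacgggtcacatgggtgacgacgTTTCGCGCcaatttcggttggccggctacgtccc
Top2a: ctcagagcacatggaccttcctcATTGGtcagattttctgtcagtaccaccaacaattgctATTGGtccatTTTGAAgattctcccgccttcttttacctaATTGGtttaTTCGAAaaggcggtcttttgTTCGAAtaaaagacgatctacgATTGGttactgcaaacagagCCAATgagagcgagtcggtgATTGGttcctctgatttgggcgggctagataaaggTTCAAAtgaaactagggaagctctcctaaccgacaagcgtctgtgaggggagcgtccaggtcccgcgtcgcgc
Beside these motifs, the differences of Mcm5, Mcm3 and Mcm7 were 2.47, 1.79 and 1.53. CCAAT was present in 24 of the 31 mitotic promoters, 18 of the 31 replication promoters, 9 of the 10 called replication promoters and 37.9% of all. The homology region was present in 25 of the 31 mitotic promoters, 7 of the 31 replication promoters and 19.4% of all. A match describes letters in a window and no more.

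Mitotic genes rose after both challenges in 38 of 38 members, against 14.6% (CCl4) and 8.44% (PH) of all genes. Their median log2 fold change was 5.82 in the CCl4 response and 4.35 in the PH response. Their difference was positive in 36 of 38, with a list median of 1.47, but it passed for 2, Ccna2 and Top2a. Of all genes 1.47% were higher. Top2a, which encodes a topoisomerase that untangles chromosomes, was at 0.251, 0.220 and 0.943 CPM in the olive oil livers, 61.7, 101 and 70.3 CPM after CCl4, 2.50, 0.993, 3.74, 1.15 and 2.06 CPM at PH day 0 and 17.4, 26.8, 37.1, 54.8 and 31.3 CPM at PH day 3. CCl4 livers were above PH day 3 livers without overlap, by 1.22 on the log2 scale, and olive oil livers were below PH day 0 livers without overlap, by 2.10, on 6 reads in all. Its difference was 3.32 ± 0.85 (adjusted p = 0.0307), and its adjusted p ranged from 6.18e-04 to 0.238 over the alternatives. Ccna2, cyclin A2, had a difference of 3.35 ± 0.79 (adjusted p = 0.0167) with 5 reads in the olive oil livers, and neither gene passed with limma-voom. With olive oil replicate 2 left out, 0 of the 38 passed in edgeR. With olive oil replicate 1 or 3, or PH day 0 replicate 12, 14 or 16 left out, the number was 1, and with CCl4 replicate 1 left out it was 5. Mki67, the proliferation marker, did not pass, with a difference of 1.13 ± 0.95 (adjusted p = 0.580) and levels of 2.01, 2.42 and 1.42 CPM in the olive oil livers, 65.4, 187 and 124 CPM after CCl4, 1.31, 0.248, 1.33, 5.31 and 1.37 CPM at PH day 0 and 33.8, 45.0, 51.8, 86.1 and 65.1 CPM at PH day 3. The ranges of CCl4 and PH day 3 overlapped in Mki67, and the median difference between the controls over the list was -0.72.

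Among regulators of entry into the cycle, 3 of 20 were higher and 0 lower, against 1.47% and 3.87% of all genes. The 3 were the pocket protein gene Rbl1 (2.99 ± 0.61), the CDK inhibitor gene Cdkn1a (2.91 ± 0.71) and the atypical E2F gene E2f8 (2.22). Rbl1 was at 0.501, 0.659 and 0.472 CPM in the olive oil livers, 8.49, 16.1 and 13.1 CPM after CCl4, 1.45, 3.48, 2.94, 3.46 and 2.06 CPM at PH day 0 and 6.17, 5.99, 6.28, 6.68 and 11.9 CPM at PH day 3, with olive oil livers 2.21 below PH day 0 livers on the log2 scale, and it did not pass in limma-voom. Cdkn1a, also the 1 called member of 19 p53 target genes, was at 0.752, 1.10 and 1.42 CPM in the olive oil livers, 129, 48.2 and 46.7 CPM after CCl4, 2.89, 1.24, 3.47, 6.23 and 4.81 CPM at PH day 0 and 34.5, 33.3, 28.6, 35.5 and 28.6 CPM at PH day 3. CCl4 livers were highest, with replicate 1 far above the other two, and olive oil livers were 1.71 below PH day 0 livers on the log2 scale. It lost the call in 9 alternatives, among them both limma-voom fits, no filter, each olive oil library left out, PH day 0 replicate 16 left out, and PH day 3 replicates 12 and 14 left out. With olive oil replicate 2, or both PH day 3 replicates 12 and 14, left out, 1 of the 20 was called. Ccnd1, cyclin D1, rose in both responses by 1.61 and 1.37, with a difference of 0.24 ± 0.40 that did not pass.

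**Figure D5:**
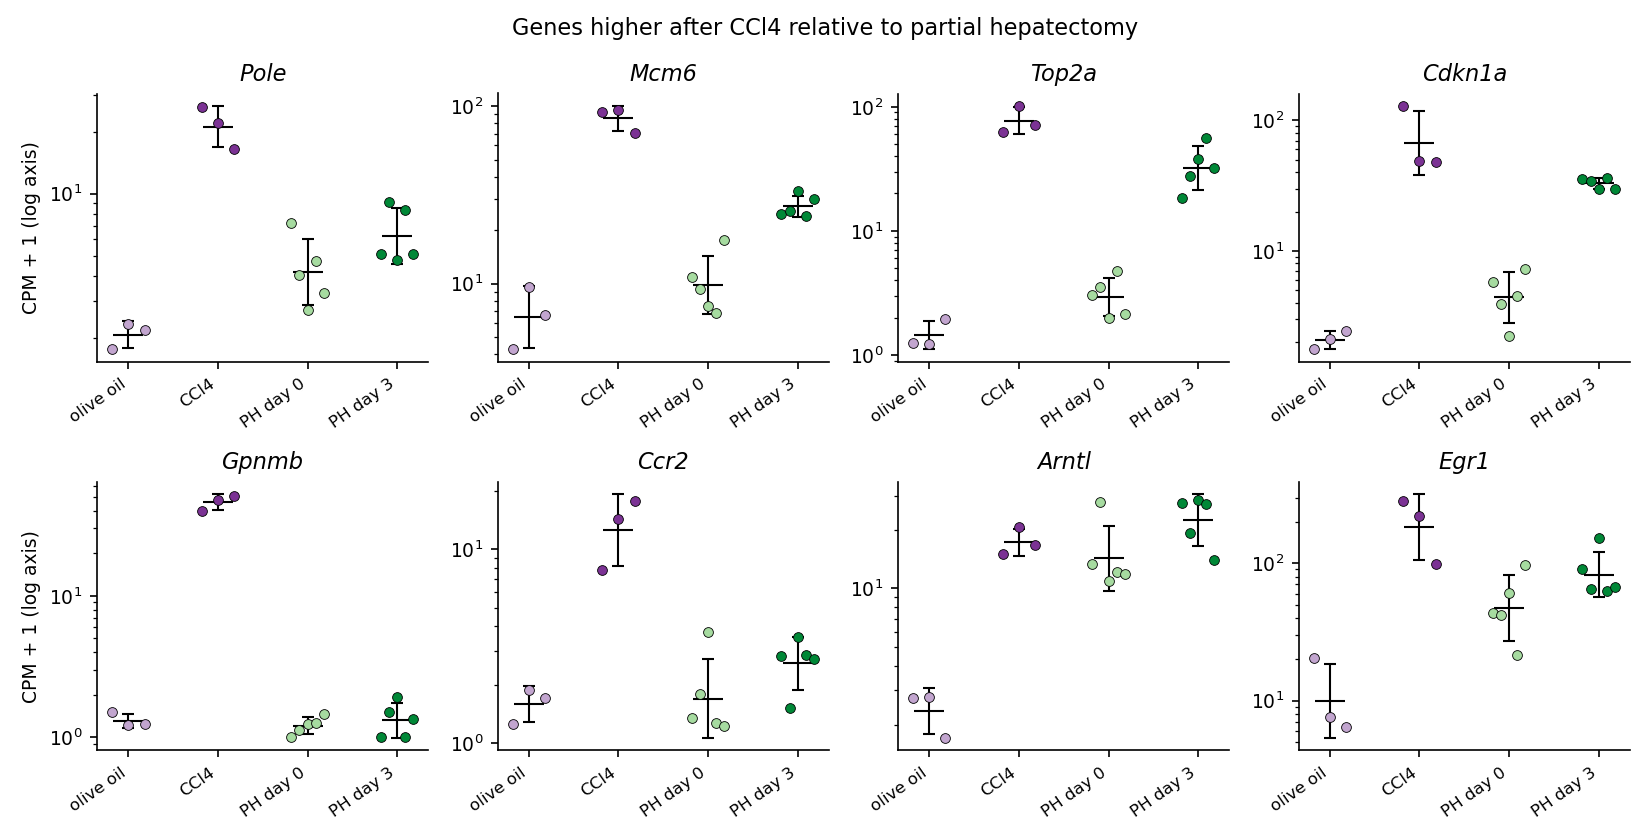
CPM + 1 on a log axis in each liver for 8 genes called with a positive difference, with the mean and 1 SD of the log values. CCl4 points lie above PH day 3 points without overlap in Pole, Mcm6, Top2a, Cdkn1a, Gpnmb and Ccr2, while in Arntl the olive oil points, at or below 1.76 CPM, stand apart from all others.

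Markers of monocytes and infiltrating macrophages were higher after CCl4 in 3 of 23 and lower in 0, against 1.47% and 3.87% of all genes. Their median difference was 0.88. They rose in 15 of 23 after CCl4 and 3 after PH, against 14.6% and 8.44% of all genes. Their summed level was 1735 to 2096 CPM after CCl4 and 948 to 1614 CPM with olive oil. It was 1025 to 1284 CPM before surgery and 1434 to 1710.2 CPM after it. Gpnmb, a gene of lipid-laden and phagocytic macrophages (ENSMUSG00000029816, chromosome 6, 49036546 to 49070929, plus strand of GRCm38), had the highest difference of all named genes. It was at 0.501, 0.220 and 0.236 CPM in the olive oil livers, 38.4, 46.8 and 49.7 CPM after CCl4, 0.131, 0.248, 0.267, 0.462 and 0 CPM at PH day 0 and 0, 0.521, 0.942, 0 and 0.341 CPM at PH day 3. All 3 CCl4 livers were above 38 CPM and no other library reached 1 CPM, with 4, 5 and 6 reads in the olive oil, PH day 0 and PH day 3 groups. Its level after CCl4 was 146-fold (95% exact counting interval 56.8 to 537) that with olive oil, and that at PH day 3 was 1.45-fold (95% exact counting interval 0.370 to 6.02) that at day 0, intervals that cover counting error only. The fitted difference was 6.55 ± 1.20 (adjusted p = 0.00165) and kept the call in every alternative run. Ccr2, the receptor that brings monocytes into tissue, was at 0.251, 0.879 and 0.708 CPM in the olive oil livers, 6.79, 13.3 and 16.7 CPM after CCl4, 0.788, 2.73, 0.267, 0.231 and 0.343 CPM at PH day 0 and 1.83, 0.521, 2.51, 1.84 and 1.70 CPM at PH day 3. CCl4 livers lay above all others, on 8 reads in the olive oil group, and the difference was 3.35 ± 0.92 (adjusted p = 0.0328). It lost the call in 8 alternatives, among them both limma-voom fits and those in which CCl4 replicate 2 or 3, PH day 0 replicate 13, or olive oil replicate 1 or 3 was left out. The third was Trem2 (2.64), a receptor of phagocytic macrophages. Adgre1, which encodes the F4/80 antigen and was listed with the Kupffer cell markers, did not pass (0.76 ± 0.46). Without olive oil replicate 3, 1 of the 23 passed, and with library size scaling 6.

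Kupffer cell markers were higher in 1 of 12 and lower in 0, against 1.47% and 3.87% of all genes. Their difference was negative in 9 of the 12, with a list median of -0.55. The higher one was Id3 (2.23 ± 0.54, adjusted p = 0.0299), which fell after PH by 1.07. Its CCl4 response of 1.16 did not pass. Id3 lost the call in 10 alternatives, among them olive oil replicate 2 or 3, CCl4 replicate 2 and PH day 3 replicates 12 and 14 left out. Endothelial markers were higher in 2 of 17 and lower in 0, against 1.47% and 3.87% of all genes. Over the 17 the median of olive oil over PH day 0 was -0.77, and that of CCl4 over PH day 3 was -0.43. The 2 were the scavenger receptor gene Stab1 (0.96 ± 0.20, adjusted p = 0.00463) and the Fc receptor gene Fcgr2b (1.09). Fcgr2b fell after PH by 0.68, and its CCl4 response of 0.42 did not pass. Stab1 was at 27.8, 34.3 and 26.4 CPM in the olive oil livers, 65.4, 55.4 and 57.5 CPM after CCl4, 38.5, 32.8, 52.3, 38.1 and 40.8 CPM at PH day 0 and 42.3, 44.8, 43.7, 39.4 and 38.8 CPM at PH day 3, with the CCl4 livers highest and the PH groups overlapping. Red blood cell markers were lower in 1 of 7, against 3.87% of all genes. Their difference was negative in all 7, with a median of -0.75. The lower one was Alas2, the erythroid heme synthesis gene (-1.58 ± 0.31, adjusted p = 0.00557, and 0.0501 with library size scaling). It was at 155, 139 and 156 CPM in the olive oil livers, 12.5, 31.9 and 29.6 CPM after CCl4, 199, 147, 159, 178 and 159 CPM at PH day 0 and 65.8, 86.4, 111, 82.2 and 74.3 CPM at PH day 3, with the CCl4 livers lowest. Summed red blood cell markers were 134 to 244 CPM after CCl4, 441 to 517 with olive oil, 759.6 to 2060.0 before surgery and 695 to 1898 after it. Of the stellate cell (15 tested), cholangiocyte (6), mesothelial (4), neutrophil (3), pancreatic acinar (2), B cell (2), T cell (1), adipocyte (1) and skeletal muscle (1) markers 0 passed in edgeR, 8 had an unadjusted p under 0.05, and in DESeq2 1 cholangiocyte marker was higher and 1 mesothelial marker lower. Of the 8, 4 were cholangiocyte markers. All 6 tested cholangiocyte markers had a positive difference, with a median of 1.15, and 4 rose after CCl4 and 0 after PH. Summed cholangiocyte markers were 213 to 329 CPM after CCl4 and 78.0 to 126 with olive oil. They were 104 to 214 CPM before surgery and 176 to 282 after it. With single libraries left out, up to 1 cholangiocyte or stellate cell marker was higher and up to 1 mesothelial marker lower. The share of any of these cell types in each difference was not tested. Matrix and myofibroblast genes rose in 30 of 38 after CCl4 and 24 after PH, against 14.6% and 8.44% of all genes. Their difference was called higher in 2 of 38 and lower in 1, against 1.47% and 3.87% of all genes. Col4a1 (0.94 ± 0.27) and Mmp14 (1.05) were higher, and Col5a3, a minor fibrillar collagen gene, was lower (-1.73 ± 0.23, adjusted p = 1.20e-04). Col4a1, a basement membrane collagen gene, was at 18.6, 24.8 and 16.3 CPM in the olive oil livers, 129, 116 and 68.8 CPM after CCl4, 46.2, 47.4, 38.4, 37.4 and 36.7 CPM at PH day 0 and 139, 107, 106, 88.2 and 124 CPM at PH day 3. Its CCl4 and PH day 3 groups overlapped, and its olive oil livers lay 1.05 below PH day 0 livers on the log2 scale without overlap. It lost the call in 16 alternatives. Col1a1, the main fibrillar collagen gene, had a difference of 1.12 ± 0.93 (adjusted p = 0.576), and 2.31 (adjusted p = 0.0404) without PH day 3 replicates 12 and 14, when 5 of the list were higher. Of the main pair, no member passed without CCl4 replicate 1 or 2, PH day 0 replicate 12, 13 or 15, PH day 3 replicate 13, 15 or 16, or olive oil replicate 1 or 3.

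Clock genes were lower in 6 of 21 and higher in 1 of them, against 3.87% and 1.47% of all genes. The median difference was -0.91, and the median of olive oil over PH day 0 was 0.85. Arntl, the gene of the activator BMAL1 (ENSMUSG00000055116, chromosome 7, 113207465 to 113314126, plus strand of GRCm38), was at 1.75, 1.76 and 0.708 CPM in the olive oil livers, 14.0, 19.6 and 15.7 CPM after CCl4, 26.9, 9.93, 11.2, 10.8 and 12.4 CPM at PH day 0 and 26.5, 18.2, 27.3, 26.0 and 12.9 CPM at PH day 3. Olive oil livers lay below 2 CPM and all other livers above 9, and the CCl4 and PH groups overlapped. The difference was 2.92 ± 0.54 (adjusted p = 0.00265), while olive oil was 3.36 lower than PH day 0 and CCl4 was 0.43 lower than PH day 3. Lower members include Usp2 (-3.95), Per2 (-1.78), Tef (-1.27), Cry2 (-0.91) and Hlf (-0.83). The labels give no hour of sampling, so its part was not tested. The count of lower clock genes was 2 with library size scaling and without CCl4 replicate 2 or olive oil replicate 3, and 3 without olive oil replicate 1.

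Immediate-early genes, which respond within minutes to growth factors and handling, were higher in 2 of 22, against 1.47% of all genes. Their median difference was 0.73, and their median of olive oil over PH day 0 was -0.73. Egr1 was at 19.3, 6.59 and 5.42 CPM in the olive oil livers, 281, 219.7 and 97.1 CPM after CCl4, 41.0, 59.4, 20.6, 95.8 and 42.2 CPM at PH day 0 and 89.1, 64.0, 153, 61.7 and 65.8 CPM at PH day 3. Its CCl4 range overlapped PH day 3, and its olive oil livers lay below all others. The difference was 3.53 ± 0.80 (adjusted p = 0.0244), which was lost in 6 alternatives, among them both limma-voom fits and those in which CCl4 replicate 2, olive oil replicate 2 or olive oil replicate 3 was left out. Tubb2b, a beta tubulin gene, had a difference of 3.70 ± 0.50 (adjusted p = 4.37e-04) with levels of 3.51, 1.76 and 6.13 CPM in the olive oil livers, 60.0, 44.0 and 38.9 CPM after CCl4, 33.8, 16.4, 17.3, 22.2 and 12.7 CPM at PH day 0 and 16.4, 25.8, 25.4, 21.2 and 12.3 CPM at PH day 3. Its PH groups overlapped, its CCl4 livers were highest, and its olive oil livers were lowest, 2.47 below PH day 0 on the log2 scale. Zbtb45, a zinc finger gene, had a difference of 3.42 ± 0.79 (adjusted p = 0.0108) on levels below 7 CPM in every library.

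Lists of stress, secretion and translation follow, beside 1.47% of all genes higher and 3.87% lower. Acute phase genes had a median of -0.01, of either sign across alternatives, with Hamp and Hamp2 higher and Ceacam1 lower (-0.58 ± 0.16) of 34. None of the 3 passed without olive oil replicate 1 or 3. Lcn2, an acute phase marker, varied from 8.52 to 3099.9 CPM over the 16 livers, and its difference was -0.48 ± 1.89. NRF2 and glutathione genes were higher in 1 of 27, the sulfiredoxin gene Srxn1 (2.40), and lower in Gpx1 (-1.30 ± 0.22, adjusted p = 9.88e-04) and Mgst1 (-0.80 ± 0.18, adjusted p = 0.0906 with library size scaling), both peroxide-reducing enzymes. No member of the list was higher when any 1 PH day 0 or olive oil library was left out, or CCl4 replicate 2 or 3, and 6 were without CCl4 replicate 1. Of 27 unfolded protein response genes 0 passed in edgeR with all libraries, DESeq2 and limma-voom, and 8 had an unadjusted edgeR p under 0.05 (median 0.34). As lower, 1 passed in limma-voom with sample quality weights, and 0 to 1 in edgeR with single libraries left out. Cytosolic ribosomal protein genes had 1 of 35 higher, Rplp2 (1.04 ± 0.29), with a list median of 0.42, and 8 higher with library size scaling. Rplp2 was at 18.8, 18.4 and 17.0 CPM in the olive oil livers, 42.0, 30.3 and 34.3 CPM after CCl4, 28.2, 32.0, 32.3, 30.2 and 14.4 CPM at PH day 0 and 29.9, 29.9, 29.8, 21.2 and 20.4 CPM at PH day 3, with the olive oil livers at the low end. It lost the call in 9 alternatives, each a single library left out, 3 of them the olive oil ones. Transcripts of the mitochondrial genome were lower in 2 of 8, mt-Nd2 (-0.88 ± 0.22) and mt-Co1 (-0.83 ± 0.22), and neither passed with library size scaling or without CCl4 replicate 2 or olive oil replicate 3, while 5 did without CCl4 replicate 1. Alb, the albumin gene, rose after PH by 0.76 and not after CCl4 (0.01), with a difference of -0.75 ± 0.23 that just missed the threshold (adjusted p = 0.0548) and passed with DESeq2 (adjusted p = 1.16e-04), both limma-voom fits, no filter, and without CCl4 replicate 1.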

How the data were processed

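The authors deposited raw counts per gene for each library, made per the file headers with featureCounts 1.6.2 over exons by gene identifier, reverse-stranded, with the Ensembl 95 annotation of GRCm38. STAR 2.5.1 is named in the submitters' processing notes. All 16 samples entered 1 model with 4 groups taken from the labels (3 CCl4, 3 olive oil, 5 PH day 0, 5 PH day 3). Nothing in the labels says that samples are separate animals throughout, so p-values measure the spread between these samples.

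Genes passed edgeR's expression filter (minimum count 10, total 15), leaving 11868. TMM scaling and edgeR 4.0.16's robust quasi-likelihood F test in R 4.3.3 gave each contrast, with Benjamini-Hochberg adjustment over all tested genes. Standard errors follow from F, whose square root is the ratio of a fold change on the log2 scale to its error. CPM is the count relative to 1000000 counts of the TMM effective library size. The procedure was tested on simulated counts in which only the CCl4 group was changed, without a PH response or a difference between controls. Alternatives were other scalings, filters and thresholds, DESeq2 1.42.0, limma 3.58.1 with voom with and without sample quality weights, a replicate block and each library left out. The members and lists were chosen with earlier results of these data known. Named genes were the 6 highest and 6 lowest differences with at least 5 CPM in a group, the largest of the opposed and shared classes, the 2 called members of smallest adjusted p of each list, the 1 of each marker list, and a panel named whether called or not. Leaving out PH day 3 replicates 12 and 14 together was chosen after seeing the data. Intervals and floors cover counting error only. Gene positions and promoters come from GENCODE and RefSeq tables of GRCm38. Some results are not reported here.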

Additional observations from a re-analysis of the deposited data

Results flagged for a closer look

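In 6 of 164 groups of 5 PH libraries examined for the named genes, the highest or the lowest library stood apart from the others by more than 0.71 of the group's range, and chance alone gives this in about 5% of groups. At PH day 0, replicate 12 was high in Elovl3 with 656 CPM and in Arntl with 26.9 CPM, and replicate 16 was low in Rplp2 with 14.4 CPM. At PH day 3, replicate 13 was high in Id3 with 53.6 CPM, replicate 16 was high in Rbl1 with 11.9 CPM and replicate 15 was low in Hamp with 25.3 CPM. With PH day 3 replicate 15 left out the call of Hamp was kept, and with PH day 0 replicate 12 left out those of Elovl3 and Arntl were kept.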

How the results depend on the processing

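The injection groups held 3 libraries each, and libraries held 2795909 to 8647503 counts. Of the 61 called genes among the 82 named, 32 kept the call in every alternative run, 29 lost it in at least 1, and none reversed; of the 21 not called, Alb, Afp and Col1a1 were called in at least 1. Library size scaling gave 481 genes higher and 153 lower, with 0 larger after PH and 3 in neither response. DESeq2 gave 279 higher, with 53 in the PH response only and 27 in neither, and limma-voom with sample quality weights 54 and 18. Without a filter 10 genes were opposed and 12 in neither. At an adjusted p under 0.01, 39 were higher and 216 lower, with 3 opposed, 55 larger after CCl4, 0 larger after PH, 183 in the CCl4 response only and 9 in the PH response only. At an absolute log2 difference of at least 1, 222 were lower, with 84 larger after CCl4, 224 in the CCl4 response only, 14 in the PH response only and 2 in neither. Without PH day 3 replicates 12 and 14, 10 were opposed, 103 larger after CCl4, 0 larger after PH and 16 in the PH response only. The cause of these moves was not tested, other than that thresholds leave fewer genes by construction. Leaving out 1 library at a time gave 80 to 244 higher and 304 to 687 lower, 11 to 28 opposed, 103 to 280 larger after CCl4, 0 to 2 larger after PH, 250 to 551 in the CCl4 response only, 17 to 60 in the PH response only and 1 to 12 in neither. The PH groups share replicate numbers, but same-numbered samples correlated at -0.046 to 0.15 over 8806 genes, and 2 of 5 day 0 samples correlated best with their own number. Such correlations cannot settle whether same-numbered samples came from the same mouse, which the labels do not state. The edgeR fit with a replicate block, which treats same-numbered PH samples as pairs, gave 124 higher, 345 lower and 0 in neither response. It ended the call of 12 named genes, Egr1, Ccr2, Cyp2c29 (adjusted p = 0.0508), Irf7, Cdkn1a, Apoa2, Hamp, Ceacam1, Elovl3, Col4a1, mt-Nd2 and mt-Co1.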

Other observations

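Among the 28 genes whose PH response alone passed, 3 that are in none of the lists are given here, chosen after their values were seen and not for their size. Neat1, a long noncoding RNA of nuclear paraspeckles, fell after PH by 0.79 on the log2 scale and had a CCl4 response of 0.67, a difference of 1.47 ± 0.32 (edgeR, adjusted p = 0.0101). Igf2r, the gene of a receptor that clears IGF2, rose after PH by 0.61 with a CCl4 response of -0.15. Fmo5, a flavin monooxygenase gene, rose after PH by 0.68 with a CCl4 response of -0.39.

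In the 6 genes whose difference passed while neither response did, the difference was positive in 1 and negative in 5. H2-Q10, a class I histocompatibility gene of liver, had responses of -0.36 after CCl4 and 0.30 after PH and a difference of -0.66 ± 0.19 (edgeR, adjusted p = 0.0386).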
